A study of Homo sapiens with 12 samples.

Results

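The 10 genes described here act in the negative feedback on ERK signalling or report its output, and were followed in C4-2 prostate cancer cells. They are the MAP kinase phosphatases DUSP1, DUSP4, DUSP5 and DUSP6, the Sprouty genes SPRY1, SPRY2 and SPRY4, and the ETS transcription factors ETV1, ETV4 and ETV5. They were taken by name from 56269 gene rows, and all 10 were in the table. A filter on low counts left 16115 genes to test, among them 7 of the 10: SPRY4, ETV1 and ETV4 were too low to test. C4-2 is a castration-resistant line derived from LNCaP. The 4 groups hold 3 libraries each: nonspecific siRNA with dihydrotestosterone (DHT), nonspecific siRNA with ethanol vehicle, siRNA against PXN (the gene of the focal adhesion adaptor paxillin) with DHT, and paxillin siRNA with vehicle. All 12 libraries had siRNA for 48 h and 12 h without serum, and the hormone was 2.5 nM DHT for 24 h. The knockdown is transient, and no source used here says that replicates were separate cultures. The p-values therefore describe only how far the libraries spread, and part of that may be technical.

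ERK is the last kinase of the RAS-RAF-MEK cascade that carries growth factor signals to the nucleus. Active ERK raises transcription of its own brakes, so these genes are widely read as a record of pathway output. DUSP proteins remove the phosphates that activate MAP kinases: DUSP4 and DUSP5 act in the nucleus, DUSP6 in the cytoplasm, and DUSP1 acts in the nucleus also on the JNK and p38 kinases. Sprouty proteins act upstream, between receptor tyrosine kinases and RAF, and ETV1, ETV4 and ETV5 are the PEA3 subgroup of ETS factors, which ERK activates. In prostate cancer, ETV1 and ETV4 are known from gene fusions, and LNCaP is known to carry a rearrangement that places ETV1 beside MIPOL1 on another chromosome.

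Sequence was looked at for genes with a RefSeq promoter window (GRCh38.p14, 250 bases before to 50 after an annotated start). Windows were held for 6 of the 10 genes, 14 windows in all: DUSP1, DUSP6, SPRY1, SPRY2, SPRY4 and ETV1. DUSP4, DUSP5, ETV4 and ETV5 are named only. The stretches below lie at genes that rose with DHT and were taken from windows that hold a motif match. The other SPRY1 window and another SPRY2 window held none. Capitals mark the motif matches. DUSP1 is shown at chr5:172771196-172771445 on the minus strand, the 250 bases before its start, with a cAMP response element match and a TATA box match. SPRY2 is shown at chr13:80340109-80340358 on the minus strand, the 250 bases before one of its 3 starts, with the androgen receptor hexamer AGAACA in reverse complement. SPRY1 is shown at chr4:123398308-123398337 on the plus strand. Only 30 bases around an ETS match are given, since this match lies in an annotated untranslated region.
DUSP1: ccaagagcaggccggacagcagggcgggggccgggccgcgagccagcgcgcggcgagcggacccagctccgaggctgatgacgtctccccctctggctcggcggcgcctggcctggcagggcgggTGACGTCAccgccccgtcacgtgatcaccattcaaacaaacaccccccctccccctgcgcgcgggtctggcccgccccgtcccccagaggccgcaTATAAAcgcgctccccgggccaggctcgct
SPRY2: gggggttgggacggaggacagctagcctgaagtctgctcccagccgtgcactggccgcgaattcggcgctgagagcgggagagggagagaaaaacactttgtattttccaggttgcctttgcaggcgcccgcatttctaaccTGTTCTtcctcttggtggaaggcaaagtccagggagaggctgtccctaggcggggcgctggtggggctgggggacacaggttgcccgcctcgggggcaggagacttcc
SPRY1: gccctccgcagCCGGAAGggggccgcgggg

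The motifs searched on both strands were AGAACA, TGACGTCA (cAMP response element), CCGGAAG (ETS), TGAATGAA and TGAATGGA (the repressor CIC) and TATAAA. Positions count from 0 at the start. In DUSP1 the TGACGTCA match runs from -125 to -118, and the TATAAA match from -30 to -25. In SPRY1 the CCGGAAG match runs from -67 to -61. In SPRY2 AGAACA was found from -108 to -103 of the start shown and from -38 to -33 of another start. ETV1 held AGAACA at one place that falls in 2 overlapping windows, and TGAATGGA in 1 window. DUSP6 and SPRY4 had no match. Among all 35116 windows, 14.8% hold AGAACA, 1.85% TGACGTCA, 10.3% CCGGAAG, 1.65% TGAATGAA, 1.03% TGAATGGA and 11.5% TATAAA. A match describes letters, not a binding site.

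**Figure D1:**
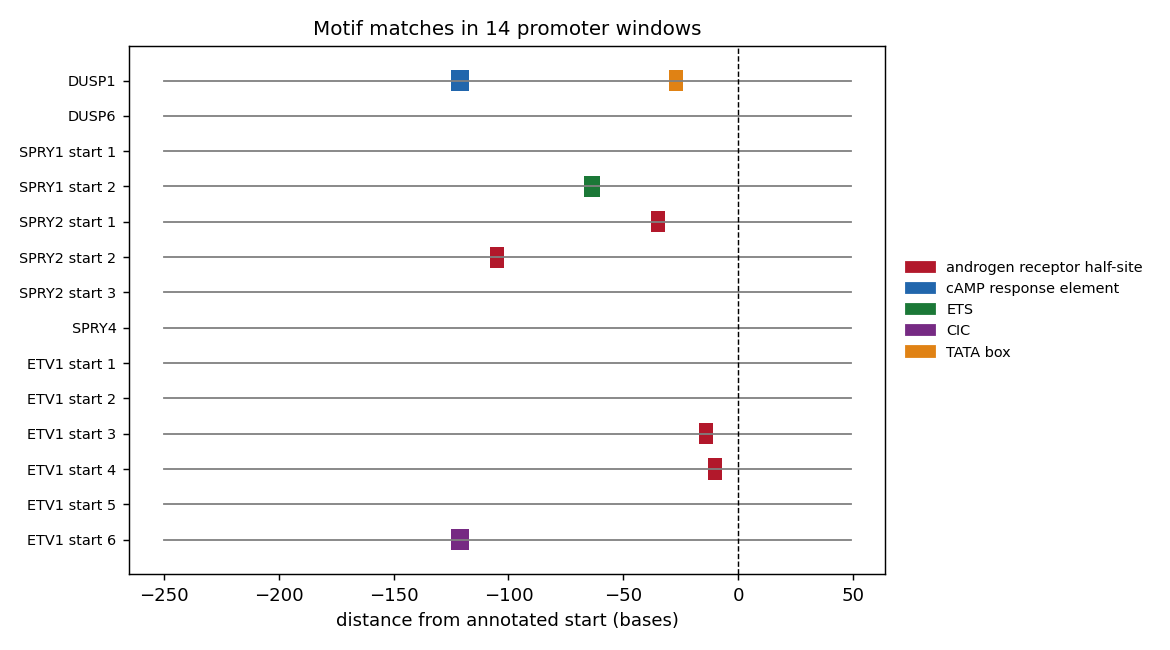
Motif matches (coloured boxes) in the 14 promoter windows of DUSP1, DUSP6, SPRY1, SPRY2, SPRY4 and ETV1, against distance from the annotated start in bases (dashed line at 0). The cAMP response element match of DUSP1 lies at -125 to -118 and the ETS match of SPRY1 at -67 to -61.

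Levels were expressed as CPM, counts scaled to the library total, with totals adjusted by the TMM method. Totals ran from 11944906 counts (nonspecific siRNA, vehicle, replicate 1) to 32040465, so 1 count is worth 0.0328 to 0.0815 CPM. PXN, the target of the siRNA, had 11.6 ± 2.43 CPM with paxillin siRNA and 127 ± 8.55 with nonspecific siRNA in DHT, and 13.8 ± 2.51 with paxillin siRNA and 146 ± 6.65 with nonspecific siRNA in vehicle (SD, n = 3 each). That is 10.8-fold and 10.6-fold lower in DHT and vehicle (edgeR quasi-likelihood test, adjusted p = 8.09e-12 and 7.39e-12). All 5 androgen check genes, such as FKBP5, rose with DHT under both siRNAs. The 8 luminal markers summed to 13600 to 14150 CPM in nonspecific DHT, 7610 to 8826 in nonspecific vehicle, 12810 to 13520 in paxillin DHT and 7071 to 8196 in paxillin vehicle. Of 11 markers of leukocyte, endothelial, fibroblast and basal cells, 2 were tested and CD3E was at 0 throughout. Their sum ran 36.6 to 42.5 CPM in paxillin DHT against 46.1 to 51.0 in nonspecific DHT, and 40.8 to 47.2 in paxillin vehicle against 47.6 to 61.4 in nonspecific vehicle, mostly COL1A1, which was lower with paxillin siRNA in vehicle (log2 -0.27) and in DHT (-0.44) and lower with DHT under paxillin siRNA (-0.37). The basal keratin gene KRT14, too low to test, was higher with DHT in every library, at 14, 9 and 16 counts in nonspecific DHT against 0, 0 and 1 in nonspecific vehicle, and at 6, 6 and 8 counts in paxillin DHT against 0 in all 3 paxillin vehicle libraries. Of the other basal markers over all 12 libraries, KRT5 had 2 counts, all in nonspecific DHT, and TP63 had 7. TP63 summed to 3 counts in paxillin DHT and 4 in paxillin vehicle. The fibroblast markers COL1A2 and DCN had 6 and 2 counts over all 12 libraries. VWF, the other tested marker beside COL1A1, was not called in any comparison. The part of the cell type markers in the results below was not tested. In bulk RNA, fewer cells of a type and less RNA per cell cannot be told apart.

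The 10 genes spanned a wide range per exon length (CPM per kilobase of GENCODE 29 exon). DUSP1 was highest in every group, at 19.5 in nonspecific DHT, 12.8 in nonspecific vehicle, 18.1 in paxillin DHT and 16.2 in paxillin vehicle. DUSP4 was second in DHT, at 9.27 with nonspecific and 7.41 with paxillin siRNA, against 1.76 and 1.47 in vehicle, where its range over libraries overlapped that of SPRY1. SPRY1 ran from 1.36 to 2.63 over the group means and SPRY2 from 0.349 to 0.641. DUSP5 lay at 0.615 to 1.30, and its libraries overlapped those of SPRY2 in both DHT groups and those of SPRY1 and DUSP4 in paxillin vehicle. DUSP6 (0.0564 to 0.0771) and ETV5 (0.0121 to 0.0758) overlapped in every group except paxillin DHT, where DUSP6 was higher. ETV4 (0.0127 to 0.0498) overlapped DUSP6 in both nonspecific groups and ETV5 in nonspecific vehicle and in paxillin DHT, where the ETV5 mean was the lower of the pair. SPRY4 and ETV1 had the lowest means in every group. Over the 12 libraries, which share the DHT and vehicle groups, Pearson r of log2 CPM was 0.92 for DUSP4 with SPRY1 and with SPRY2 and 0.79 between these Sprouty genes. It was lower for DUSP1, at 0.60 with DUSP4, 0.48 with SPRY1 and 0.57 with SPRY2.

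**Figure D2:**
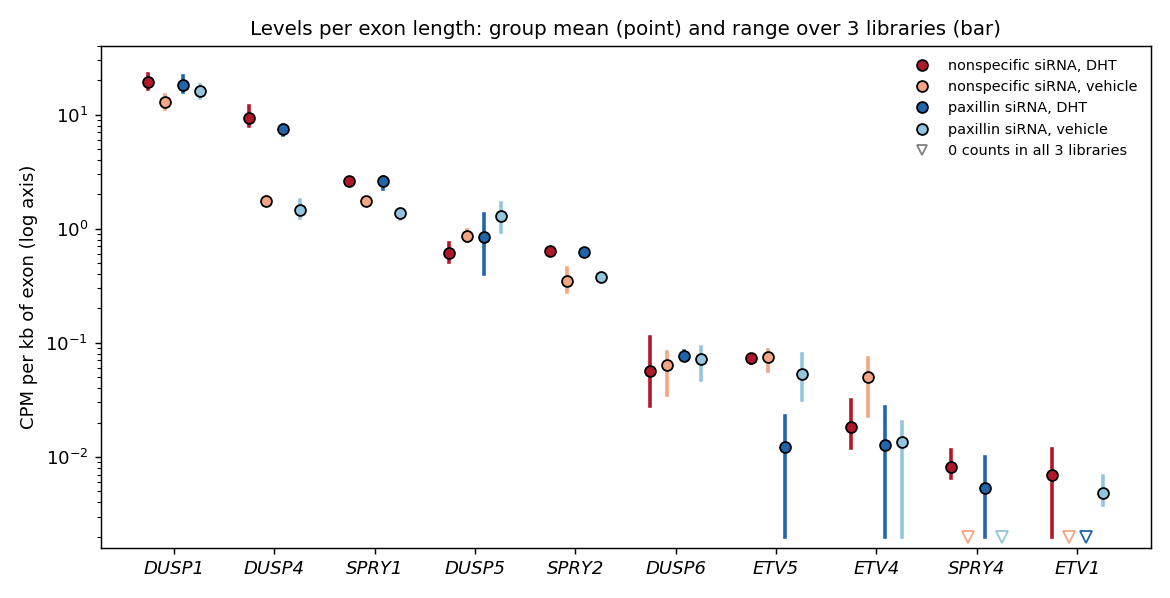
Group mean level per exon length on a log axis, with the range over 3 libraries as a bar, for the 10 genes ordered by level. DUSP1 averages 12.8 to 19.5 CPM per kb, and DUSP4 9.27 in nonspecific DHT against 1.76 in nonspecific vehicle. A bar that reaches the bottom includes a library at 0 counts, and triangles mark groups with 0 counts in all 3 libraries.

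The effect of DHT with nonspecific siRNA asks how the hormone moves these genes when paxillin is present. DHT raised 4 of the 7 tested genes, DUSP4, SPRY2, DUSP1 and SPRY1, and lowered none, against 21.6% of all tested genes called up and 18.9% called down at adjusted p under 0.05. DUSP4, a nuclear ERK phosphatase, had 85.6, 58.4 and 57.7 CPM in DHT, against 13.7, 11.8 and 12.9 CPM in vehicle. All 3 DHT libraries lay far above all vehicle libraries, at 5.30-fold (log2 2.41 ± 0.15 SE, adjusted p = 4.93e-10, edgeR quasi-likelihood test over all genes). SPRY2 had 1.97, 1.96 and 1.91 CPM in DHT, against 1.39, 0.853 and 0.940 CPM in vehicle. The groups did not overlap, with 1.92-fold higher levels in DHT (log2 0.94 ± 0.24 SE, adjusted p = 0.00371, edgeR). SPRY1 had 10.6, 10.5 and 9.97 CPM in DHT, against 6.44, 6.98 and 7.33 CPM in vehicle. It too was separated, at 1.49-fold (log2 0.57 ± 0.13 SE, adjusted p = 0.0013, edgeR). DUSP1, the phosphatase also known as an early stress-response gene, had 38.3, 34.1 and 45.8 CPM in DHT, against 24.2, 22.9 and 30.1 CPM in vehicle. The lowest DHT library exceeded the highest vehicle library, at 1.53-fold (log2 0.61 ± 0.14 SE, adjusted p = 0.00175, edgeR).

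The other 3 tested genes did not pass. DUSP5 had 1.33, 1.96 and 1.54 CPM in DHT, against 2.12, 2.05 and 2.56 CPM in vehicle. Its groups did not overlap, yet the log2 fold change of -0.49 had a 95% interval from -1.22 to 0.24 (adjusted p = 0.279, edgeR). DUSP6, the cytoplasmic ERK-specific phosphatase, had 0.129, 0.131 and 0.525 CPM in DHT, against 0.163, 0.388 and 0.338 CPM in vehicle. The groups overlapped and the counts were only 2 to 14 per library. The 95% interval of the log2 fold change was wide, from -1.40 to 0.93, and leaves both a fall and a rise open. ETV5 had 0.386, 0.436 and 0.450 CPM in DHT, against 0.326, 0.504 and 0.489 CPM in vehicle (log2 -0.11, interval -1.08 to 0.87). SPRY4 had 1, 1 and 2 counts in DHT, against 0 in all 3 vehicle libraries, where 3 counts would be 0.0464 CPM. ETV1 had 2, 0 and 3 counts in DHT, against 0 in vehicle. ETV4 had 1, 1 and 3 counts in DHT, against 1, 5 and 7 in vehicle. No fold is given for these counts, and none passed when the filter was lifted (adjusted p from 0.218 to 1 over all comparisons, edgeR).

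The same question with paxillin siRNA gave 3 genes up and 1 down of the 7, against 20.1% of all tested genes up and 17.9% down. DUSP4 had 58.7, 48.6 and 54.1 CPM in DHT, against 12.9, 9.01 and 10.0 CPM in vehicle. Again every DHT library was above every vehicle library, at 5.05-fold (log2 2.33 ± 0.15 SE, adjusted p = 5.9e-10, edgeR). SPRY1 had 8.82, 11.3 and 11.2 CPM in DHT, against 5.85, 5.54 and 4.78 CPM in vehicle, which was 1.92-fold higher (log2 0.94 ± 0.12 SE, adjusted p = 7.99e-06, edgeR). SPRY2 had 2.00, 1.93 and 1.75 CPM in DHT, against 1.25, 1.13 and 1.05 CPM in vehicle, 1.65-fold higher (log2 0.72 ± 0.22 SE, adjusted p = 0.0138, edgeR). Both Sprouty genes were separated between treatments, but SPRY2 reached an adjusted p of 0.0504 without paxillin DHT replicate 1 and 0.0521 without paxillin vehicle replicate 3 (edgeR).

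ETV5, the ETS factor, fell to 0.131, 0.0787 and 0 CPM in paxillin DHT (4, 2 and 0 counts), against 0.460, 0.182 and 0.290 CPM in paxillin vehicle (14, 5 and 8 counts). The groups did not overlap, and the fitted log2 fold change was -2.03 ± 0.64 SE (4.09-fold lower, adjusted p = 0.0172, edgeR). The call rests on 33 counts in 6 libraries: without paxillin DHT replicate 3 it was -1.52 (adjusted p = 0.0625) and without paxillin vehicle replicate 1 it was -1.64 (adjusted p = 0.0967). Of these 6, only paxillin vehicle replicate 1 reached the filter's minimum count of 10. ETV5 was thus tested mainly through its counts in nonspecific libraries. DUSP1 had 32.0, 33.5 and 44.2 CPM in DHT, against 28.4, 33.0 and 37.0 CPM in vehicle, overlapping groups with a log2 fold change of 0.16 (interval -0.12 to 0.44, adjusted p = 0.379, edgeR). DUSP5 had 1.05, 2.09 and 3.50 CPM in DHT, against 2.43, 3.32 and 4.42 CPM in vehicle, log2 -0.63 (adjusted p = 0.119, edgeR). With 1 library left out, the DUSP5 value ran from -1.14 to -0.27 (adjusted p from 0.00645 to 0.476, edgeR). Only 1 of these fits called DUSP5 down, that without paxillin DHT replicate 3, at -1.14 (adjusted p = 0.00645, edgeR). With the replicate number as a block it was called down at -0.66 (adjusted p = 0.0191, edgeR). In that block fit 43.9% of all genes were called in either direction. DUSP6 lay at 0.328 to 0.394 CPM in DHT and 0.219 to 0.428 CPM in vehicle, with no separation (log2 0.07, interval -0.96 to 1.10). SPRY4 summed to 3 counts in DHT and 0 in vehicle, ETV1 to 0 and 4, and ETV4 to 4 in each.

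**Figure D3:**
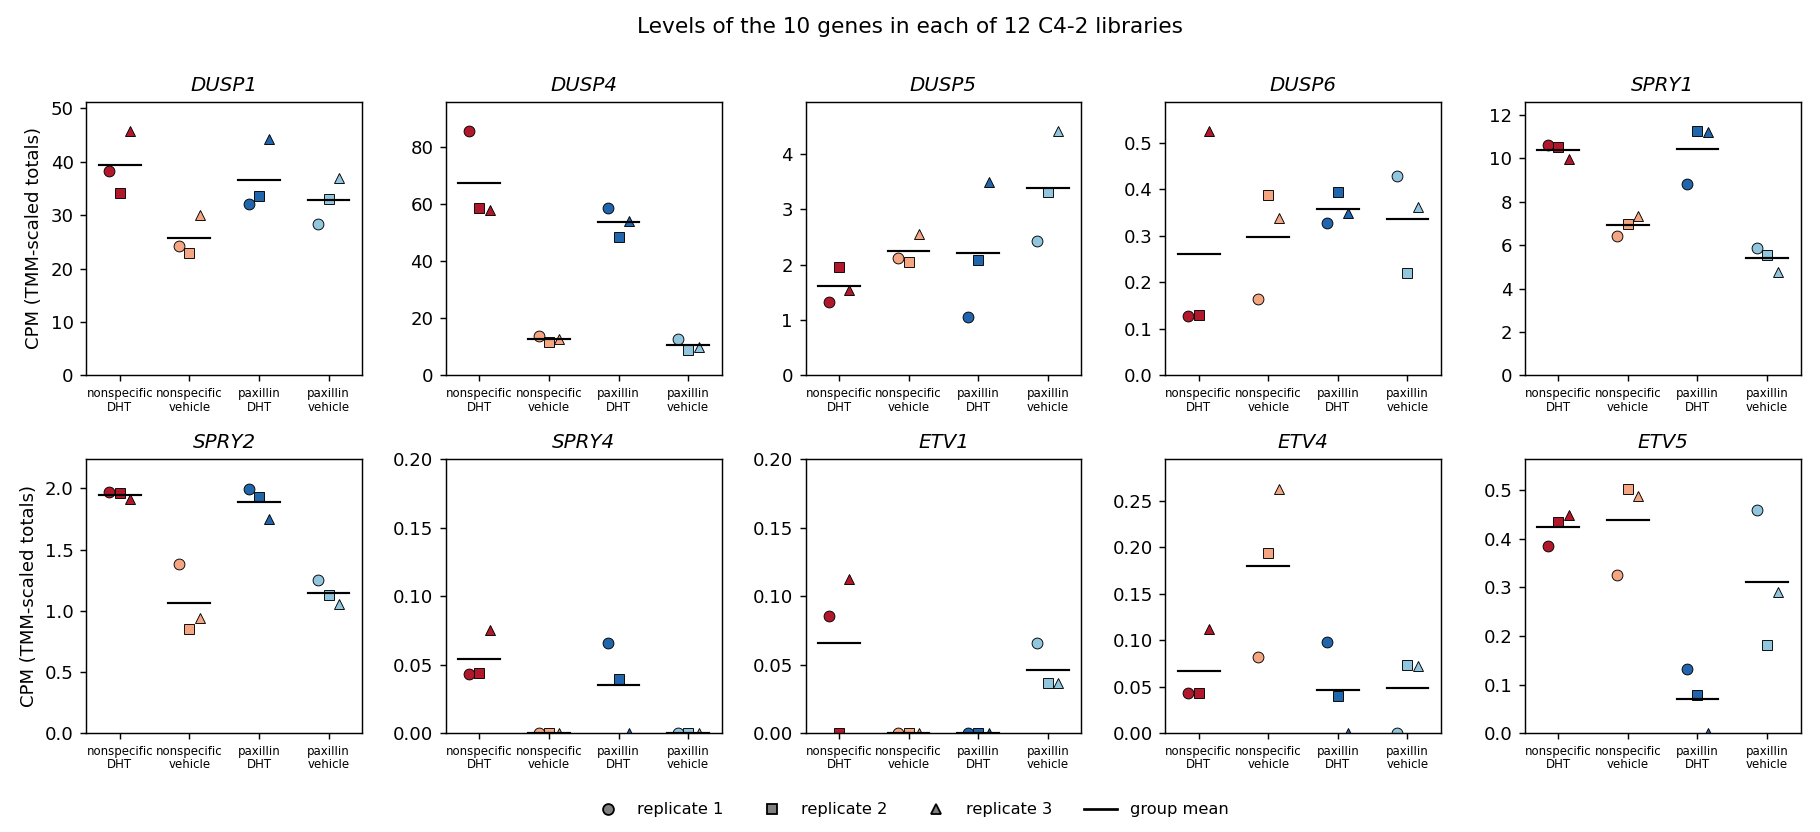
CPM of the 10 genes in each of the 12 libraries, with DHT left of vehicle under each siRNA, the group mean as a line and the replicate number as the symbol. DUSP4 separates DHT (48.6 to 85.6 CPM) from vehicle (9.01 to 13.7 CPM) under both siRNAs, and ETV5 is lowest in paxillin DHT.

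The effect of paxillin siRNA asks whether loss of paxillin shifts these genes. In vehicle none of the 7 tested genes was called (edgeR), against 10.7% of all genes up and 9.78% down, and DESeq2 called 0. Before adjustment, 2 had a p under 0.05 (edgeR), a threshold at which the share of all genes was not counted. DUSP1 was 32.8 ± 4.28 CPM with paxillin siRNA and 25.7 ± 3.84 CPM with nonspecific siRNA, log2 0.34 ± 0.14 SE (adjusted p = 0.0913, edgeR). SPRY1 was 5.39 ± 0.55 and 6.92 ± 0.45 CPM with paxillin and nonspecific siRNA (SD, n = 3 each). Its groups did not overlap, with log2 -0.37 ± 0.13 SE (adjusted p = 0.0535, edgeR). DUSP5 was 3.39 ± 1.00 CPM with paxillin and 2.24 ± 0.27 CPM with nonspecific siRNA (log2 0.58, interval -0.09 to 1.25). The other tested genes gave log2 fold changes of -0.25 for DUSP4 (interval -0.59 to 0.09), 0.18 for SPRY2 (-0.34 to 0.70), 0.08 for DUSP6 (-1.02 to 1.19) and -0.53 for ETV5 (-1.53 to 0.46). These calls depended on how the replicates were treated. With the replicate number as a block, DUSP1 (log2 0.36, adjusted p = 0.001) and DUSP5 (0.63, adjusted p = 0.0475) were called up and SPRY1 (-0.36, adjusted p = 0.0397) and DUSP4 (-0.29, adjusted p = 0.0288) down, where 28.3% of all genes were called in either direction. Leaving out 1 library called DUSP1 without nonspecific vehicle replicate 3 (adjusted p = 0.0359), paxillin DHT replicate 3 (0.0472) or paxillin vehicle replicate 1 (0.0359), and SPRY1 without paxillin DHT replicate 1 (0.0369) or paxillin vehicle replicate 1 (0.0477).

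In DHT, 1 of the 7 was called, against 6.34% of all genes up and 7.00% down. ETV5 had 0.131, 0.0787 and 0 CPM with paxillin siRNA, against 0.386, 0.436 and 0.450 CPM with nonspecific siRNA. These groups did not overlap, at a fitted log2 fold change of -2.46 ± 0.62 SE (5.50-fold lower, adjusted p = 0.0132, edgeR), and without paxillin DHT replicate 3 it was -1.94 (adjusted p = 0.0579). All paxillin DHT libraries lay below the filter's minimum count of 10, so ETV5 entered the test through libraries where it was higher. Reads of ETV5 and of DGKG, which overlaps it on the same strand, could be mixed, though DGKG had 0 to 3 counts per library. DUSP4 was 53.8 ± 5.08 CPM with paxillin siRNA and 67.3 ± 15.9 CPM with nonspecific siRNA (log2 -0.32, interval -0.59 to -0.05, adjusted p = 0.114, edgeR). With the replicate block it was called down at -0.31 (adjusted p = 0.00372), among 21.6% of all genes. SPRY1 (log2 0.00, interval -0.24 to 0.25) and SPRY2 (-0.04, interval -0.48 to 0.40) were not called, nor was DUSP1 (-0.11, interval -0.39 to 0.17). DUSP5 (0.44, interval -0.27 to 1.16) and DUSP6 (0.39, interval -0.71 to 1.49) were not called either, with wide intervals. With paxillin siRNA, SPRY4, ETV1 and ETV4 had 3, 0 and 4 counts in DHT over 3 libraries, against 4, 5 and 5 with nonspecific siRNA.

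Whether the DHT response differs between the siRNAs was tested as an interaction. None of the 7 was called (edgeR), against 0.0496% of all genes in either direction, and DESeq2 called 0. Before adjustment, 3 had a p under 0.05 (edgeR). The share of all genes at that unadjusted threshold was not counted, so the 3 cannot be set against the 0.0496%. The DUSP4 response differed by a log2 of -0.07 (paxillin minus nonspecific, interval -0.51 to 0.37). DUSP1 differed by -0.45 (interval -0.85 to -0.05, adjusted p = 0.508, edgeR), SPRY1 by 0.37 (0.003 to 0.74, adjusted p = 0.561) and ETV5 by -1.93 (-3.60 to -0.25, adjusted p = 0.497). The differences of DUSP5 (-0.14, interval -1.12 to 0.84), DUSP6 (0.30, interval -1.25 to 1.86) and SPRY2 (-0.22, interval -0.90 to 0.46) spanned 0. Under the replicate block DUSP1 alone was called, at -0.47 (adjusted p = 0.0341), among 0.602% of all genes. So the loss of the DUSP1 call and the gain of the ETV5 call under paxillin siRNA were not shown to be differences between the siRNAs in the unblocked test. The 2 DHT comparisons use separate vehicle groups, but each treatment group serves 2 comparisons.

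**Figure D4:**
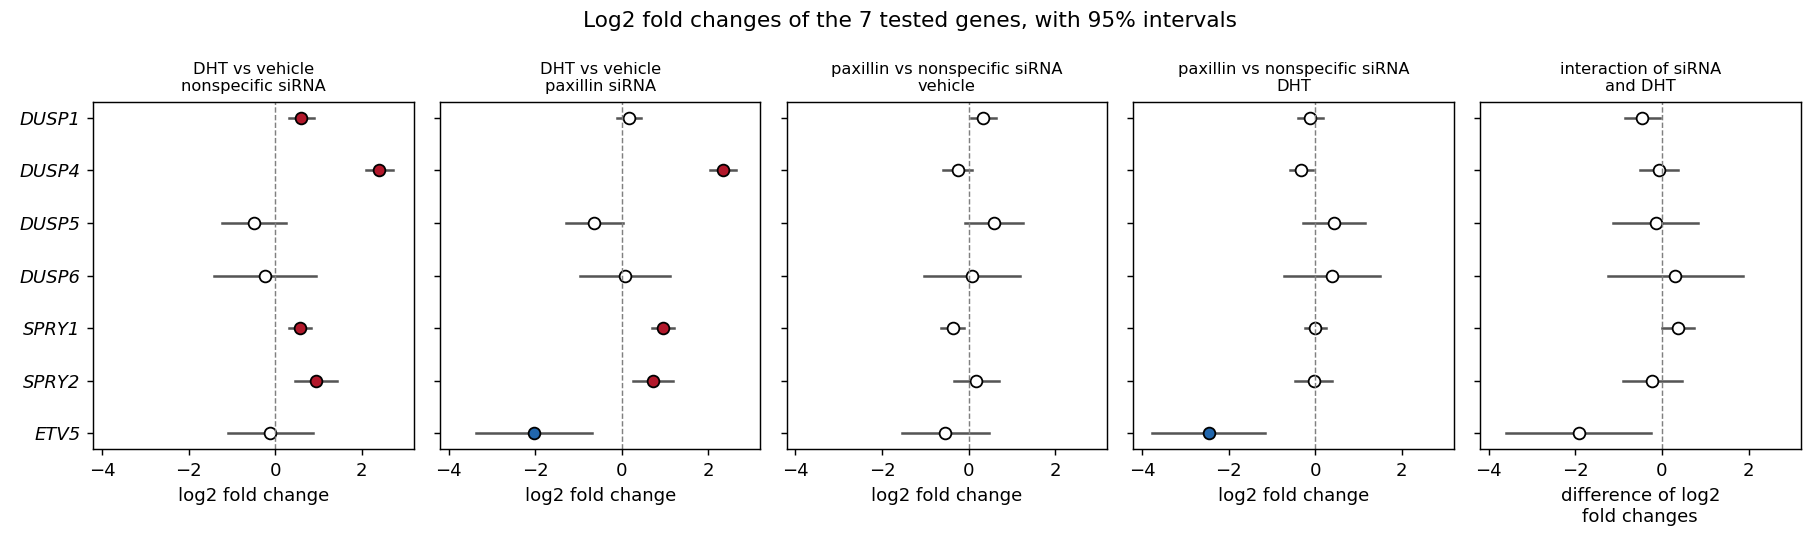
Log2 fold changes of the 7 tested genes with 95% intervals in the 4 comparisons and the interaction, DHT over vehicle and paxillin over nonspecific siRNA, with called genes filled red (up) or blue (down). DUSP4 lies at 2.41 and 2.33 for DHT, and ETV5 at -2.46 for paxillin siRNA in DHT with an interval of -3.76 to -1.16.

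Other genes of the pathway were counted by list. The median log2 fold change of all tested genes was within 0.01 of 0 in each comparison. Among all tested genes, DHT raised 21.6% and lowered 18.9% with nonspecific siRNA, and raised 20.1% and lowered 17.9% with paxillin siRNA. Paxillin siRNA raised 10.7% and lowered 9.78% in vehicle, and raised 6.34% and lowered 7.00% in DHT. The list counts are to be read beside these shares. Of 20 tested genes of the ERK cascade core, 12 rose and 3 fell with DHT under nonspecific siRNA, and 10 rose and 1 fell under paxillin siRNA (medians 0.21 and 0.18). RPS6KA3, a kinase downstream of ERK, rose 2.00-fold and 2.67-fold, and MAP2K1, which encodes a MEK kinase, 1.79-fold and 1.76-fold, while the adaptor gene GAB1 was lower under nonspecific siRNA (log2 -0.71). With paxillin siRNA, 7 of the 20 fell in vehicle and 2 in DHT, and none rose (medians -0.09 and -0.04). Of 13 tested other inhibitors, 7 rose and 1 fell with DHT under nonspecific siRNA and 5 rose and 1 fell under paxillin siRNA (medians 0.26 and 0.25). ERRFI1, a feedback inhibitor of the EGF receptor, rose 3.64-fold and 3.67-fold. Paxillin siRNA raised 2 and lowered 3 of them in vehicle, and raised 1 and lowered 1 in DHT (medians -0.12 and -0.10). Of 6 other MAP kinase phosphatases, 1 rose and 1 fell with DHT under nonspecific siRNA and 1 rose and 2 fell under paxillin siRNA (medians -0.13 and -0.07). Paxillin siRNA raised 2 in each treatment (medians 0.42 and 0.31), DUSP10 (log2 0.64 in vehicle, 0.72 in DHT) and DUSP2 (0.60 and 0.32). DUSP10 is known for acting on JNK and p38.

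Of 9 tested ERK output genes, DHT raised 3 and lowered 1 under nonspecific siRNA, and raised 2 and lowered 1 under paxillin siRNA (medians -0.03 and 0.08). For these lists too, the shares of all tested genes apply. With DHT they were 21.6% up and 18.9% down under nonspecific siRNA, and 20.1% and 17.9% under paxillin siRNA. With paxillin siRNA they were 10.7% up and 9.78% down in vehicle, and 6.34% and 7.00% in DHT. HBEGF, an EGF receptor ligand, fell by 1.28 and 1.64 on the log2 scale, and CCND1 rose by log2 0.41 and 0.35. None of the 9 was called for paxillin siRNA in either treatment (medians -0.09 in vehicle and -0.22 in DHT). Of 9 regulators of ETV1, ETV4 and ETV5, DHT raised 1 and lowered 1, and raised 1 and lowered 2 under paxillin siRNA, CUL4A rising each time (medians -0.04 and 0.01). Paxillin siRNA raised 3 in vehicle, among them the repressor gene CIC (log2 0.36), and 1 in DHT (medians 0.05 and 0.09). Of 13 other ETS factors, DHT raised 6 and lowered 3, and raised 5 and lowered 1 under paxillin siRNA (medians 0.20 and 0.19). Paxillin siRNA raised 1 and lowered 2 in vehicle and moved none in DHT. SPDEF, a prostate epithelial ETS gene, rose 4.49-fold and 3.51-fold. Of 5 tested genes beside ETV1 and its insertion site, 2 rose with DHT and 3 under paxillin siRNA, none fell, and 2 fell with paxillin siRNA in vehicle. MIPOL1 had 25.0 CPM in nonspecific DHT and 21.8 CPM in nonspecific vehicle (not called). With paxillin siRNA it had 23.3 CPM in DHT and 19.3 CPM in vehicle, and was among the 3 called up. ETV1 had at most 3 counts in any library. The interaction called no gene of these lists (edgeR).

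**Figure D5:**
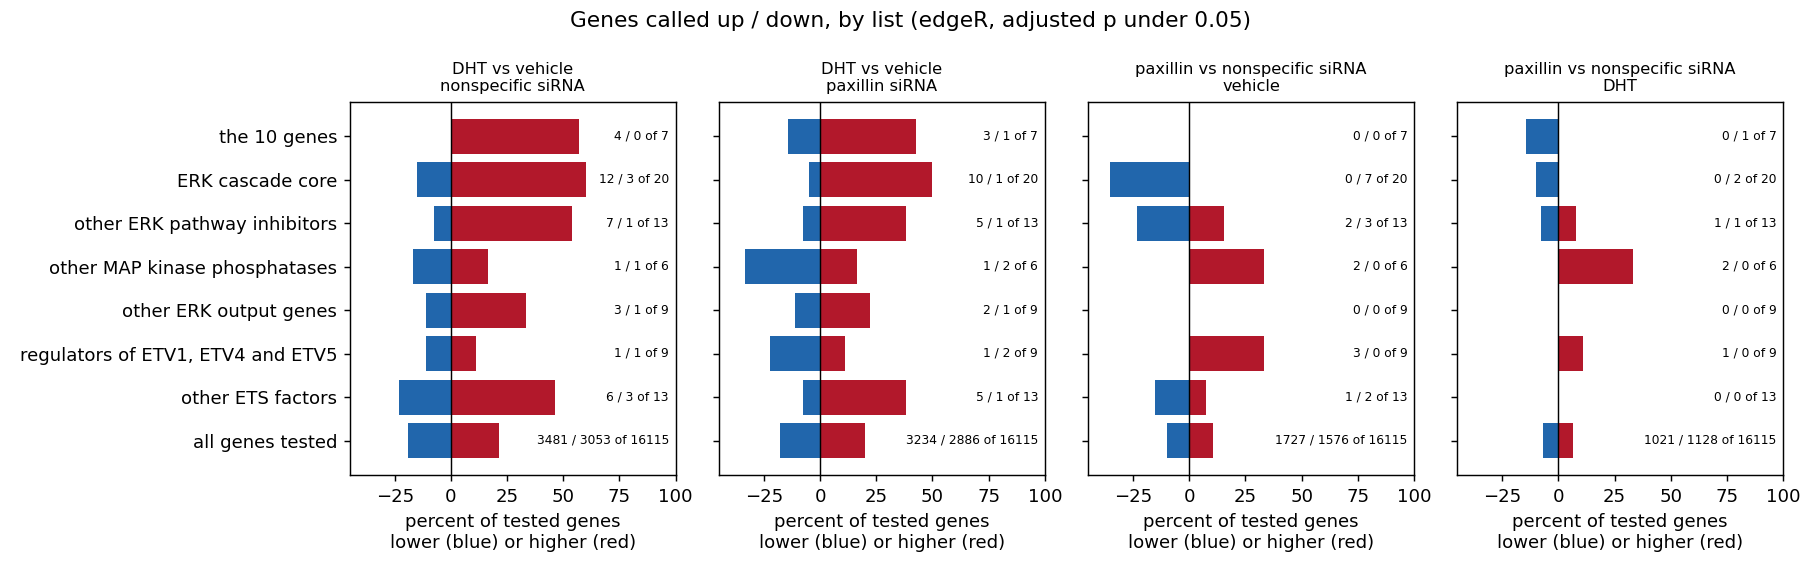
Percent of tested genes called higher (red) or lower (blue) in each list for the 4 comparisons, with counts up / down of tested genes at the right. The ERK cascade core list gives 12 up and 3 down of 20 for DHT with nonspecific siRNA, where all genes give 21.6% up and 18.9% down.

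By Pearson r of log2 CPM over the 12 libraries, among 10701 genes, DUSP4 was most like RASSF3 (r = 0.994) and RPS6KC1 (0.992), ETV5 like CARS (0.959) and CCDC87 (0.945), and DUSP5 like H2AFV and TMEM2 (0.919 each). RASSF3 rose 2.33-fold with DHT under nonspecific siRNA and 2.37-fold under paxillin siRNA. CARS was lower with paxillin siRNA in DHT (log2 -0.42). These are likenesses of pattern across libraries that share the 4 groups. RASSF3 and CARS were picked for this likeness in the same libraries, so their changes are no separate support. ETV5 had only 0 to 14 counts per library, so its likenesses carry much counting error.

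Annotation limits touch several of the genes. ETV4 (chr17:43527844-43579620) lies opposite DHX8, which had 953 to 2393 counts per library, and the strand setting of the counting is unknown here, so its few counts are uncertain. DUSP1 (chr5:172768090-172771195, minus strand) and DUSP6 (chr12:89347232-89353271, minus strand) overlap antisense annotations that are not analysed here. SPRY1 lies at chr4:123396795-123403760 and SPRY2 at chr13:80335976-80340951, ETV5 at chr3:186046308-186110318, DUSP5 at chr10:110497838-110511544, DUSP4 at chr8:29333064-29350668, SPRY4 at chr5:142310427-142326455 and ETV1 at chr7:13891228-13991425 (GRCh38, GENCODE 29).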

How the data were processed

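RNA of 12 C4-2 libraries was measured by stranded TruSeq mRNA sequencing, per the labels' protocols. The authors deposited whole-number counts per gene symbol. Reads were handled with Trimmomatic 0.36, STAR 2.5.2b and featureCounts of Subread 1.5.0p3 on GRCh38, per the submitters' processing notes. The sources used here give neither annotation release nor strand setting. In R 4.3.3, edgeR 4.0.16 fitted all libraries together (quasi-likelihood, 4 group means), after filterByExpr (minimum count 10, total 15) and TMM scaling. A call required an adjusted p under 0.05 (Benjamini-Hochberg, 16115 genes). Other settings tried were upper-quartile and RLE scaling, dropping the filter, DESeq2 1.42.0, the replicate number as a block, and each library left out. The 10 genes, the lists and the rule for named genes (per list, the 2 largest rises and 2 largest falls called) were chosen with earlier results of these data known. The pipeline was tested on simulated data. SEs come from the F statistic. Intervals cover 95%, and the floor is 3 counts over a group. The floor covers counting error only. The main fit has no replicate term, so its p-values ignore any pairing by replicate number, and only the block fit takes that number into account. Libraries of the same number did deviate together, over 10701 genes. Deviations from the group means correlated at 0.14 to 0.48 in all 18 same-number pairs (median 0.27). In 36 other pairs they correlated at -0.43 to 0.21 (median -0.11). Calls that differ under the block are therefore given with the main results. Replicates differed beyond sampling noise (chi-square per degree of freedom 6.04 to 17.9). GENCODE 29 gave positions and exon lengths and RefSeq the promoter windows.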

Additional observations from a re-analysis of the deposited data

How the results depend on the processing

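With up and down pooled, the counts of called genes for DHT were within 1.5 times of the main count under every alternative run. By direction, the 1 gene down for DHT under paxillin siRNA became 2 with the replicate block or no filter (DUSP5 gained) and 0 without paxillin vehicle replicate 1 (ETV5 lost), and without paxillin DHT replicate 3 it was DUSP5 in place of ETV5. For paxillin siRNA in vehicle, where none was called, removing the low-count filter gave 1, the replicate block 4 and leaving out 1 library 0 to 2. For paxillin siRNA in DHT, where 1 was called, no filter gave 2, the replicate block 2 and leaving out 1 library 0 to 1. For the interaction the replicate block gave 1 and the others 0. Without the filter, or with 1 library left out, the share of all tested genes called was not counted. The counts from those fits therefore cannot be set against such a share. The block changed no other call than those given with its values and that of DUSP5 under paxillin siRNA. Over single genes, 161 values kept their call and direction and 10 gained a call under other settings, and with 1 library left out 409 kept it, 6 gained and 5 lost it. None changed direction while called. Values to which a fit gave no adjusted p were left out of these counts. The median log2 fold change of all genes moved most under upper-quartile scaling for DHT under paxillin siRNA, at -0.094 against -0.0078 with TMM. The cause of each change was not tested. The low counts of ETV5, DUSP6, SPRY4, ETV1 and ETV4 limit what depth can show.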
